A study of Homo sapiens with 64 samples.

Results

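Formoterol added to budesonide for 6 h was described in BEAS-2B cells, a human line immortalised from bronchial epithelium, by setting cells given both drugs (Bud_Form) against cells given budesonide alone (Bud). The 8 arrays, 4 in each group, were chosen by their titles from the 64 arrays of the series. Bud_Form cells received 10 nM formoterol and 100 nM budesonide, and Bud cells received 100 nM budesonide. Cells given 10 nM formoterol alone (Form) and untreated cells (NS), with 4 arrays each at 6 h, and the Bud_Form and Bud groups of 1, 2 and 18 h served for the comparisons that follow. Every group was kept without serum overnight before treatment, and all came from the same line, so the values describe 1 cell line. Replicates are independent determinations per the labels and numbered 1 to 4, and with 4 arrays a group the precision is limited by that number. The design asks what the agonist changes on top of the glucocorticoid.

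Formoterol is a long-acting agonist of the beta-adrenoceptor that relaxes airway smooth muscle. In epithelial cells the same receptor couples through a stimulatory G protein to adenylyl cyclase, and the cyclic AMP made there activates protein kinase A. The kinase phosphorylates transcription factors of the CREB family, which bind cyclic AMP response elements (CREs) in promoters, and phosphodiesterases break the cyclic AMP down again. Budesonide is an inhaled glucocorticoid whose receptor, NR3C1, enters the nucleus, binds DNA, raises genes such as TSC22D3 and lowers many inflammatory genes. The 2 drugs are given together by inhalation in asthma.

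Levels are log2 values from RMA, which corrects background, normalizes and summarises the probes of an array, so a difference of 1 is 2-fold. The 64 array medians lay between 4.87 and 4.95, and replicates correlated at 0.989 or above across probe sets. Beta-actin probes at the 3' end minus those at the 5' end, which read RNA quality, gave their highest value in replicate 1 in both groups. This difference was 2.15, 1.17, 1.06 and 1.10 in Bud_Form replicates 1 to 4, and 1.94, 1.06, 0.81 and 0.94 in Bud replicates 1 to 4, so it was higher in Bud_Form than in the same-numbered Bud array in 4 of 4 pairs. The same difference for GAPDH was 0.51, 0.22, 0.24 and 0.20 in Bud_Form arrays, against 0.48, 0.18, 0.17 and 0.21 in Bud arrays, and higher in 3 of 4 pairs. The part of these measures in the results was not tested. The cytokeratins KRT8 and KRT18 of simple epithelia averaged 9.12 ± 0.15 and 10.43 ± 0.05 in Bud_Form cells and 9.23 ± 0.25 and 10.69 ± 0.14 in Bud cells (SD, n = 4 each). The epithelial adhesion gene EPCAM averaged 2.67 ± 0.31 in Bud_Form and 2.55 ± 0.22 in Bud arrays, below 3.02, the lower quartile of all probe sets and a rough guide to dim signal. The cadherin gene CDH1, at 3.91 ± 0.41 in Bud_Form and 4.07 ± 0.40 in Bud arrays, lay above that guide but below 4.90, the median of all probe sets. EPCAM is thus dim and CDH1 low in this line. The KRT18 difference, −0.26, passed with the replicate block (limma adjusted p = 0.0104) and missed the threshold without it.

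Adding formoterol changed a broad set of genes, and the larger changes were mostly increases. Of 18132 genes tested, limma called 1218 (6.72%) at a Benjamini-Hochberg adjusted p under 0.05, with 709 higher (3.91%) and 509 lower (2.81%) in Bud_Form cells. Of these, 110 genes (0.607%) differed at least 2-fold, and 93 of the 110 were higher. When replicate number was made a block, 1886 genes passed, 1044 higher and 842 lower. All 4 Bud_Form arrays lay above or below all 4 Bud arrays in 2054 genes (11.3%), and 1023 of the called genes were among them. Without any test adjustment 3095 genes had p under 0.05, and the median log2 difference over all genes was −0.03.

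The 12 highest and 12 lowest genes were named by a rule that takes only genes in which the 4 Bud_Form and 4 Bud arrays do not overlap. NPTX1, which encodes the secreted protein neuronal pentraxin 1, was at 8.44, 8.43, 8.23 and 7.94 in Bud_Form arrays, against 3.91, 4.42, 3.87 and 4.06 in Bud arrays. It was thus below the median probe set (4.90) with budesonide and well above it with both drugs, an 18.4-fold difference (4.20 ± 0.23, SE, limma adjusted p = 1.05e-21). NPTX1 has a further probe set that differed by only 0.06, so the size holds for the brighter probe set.

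**Figure D1:**
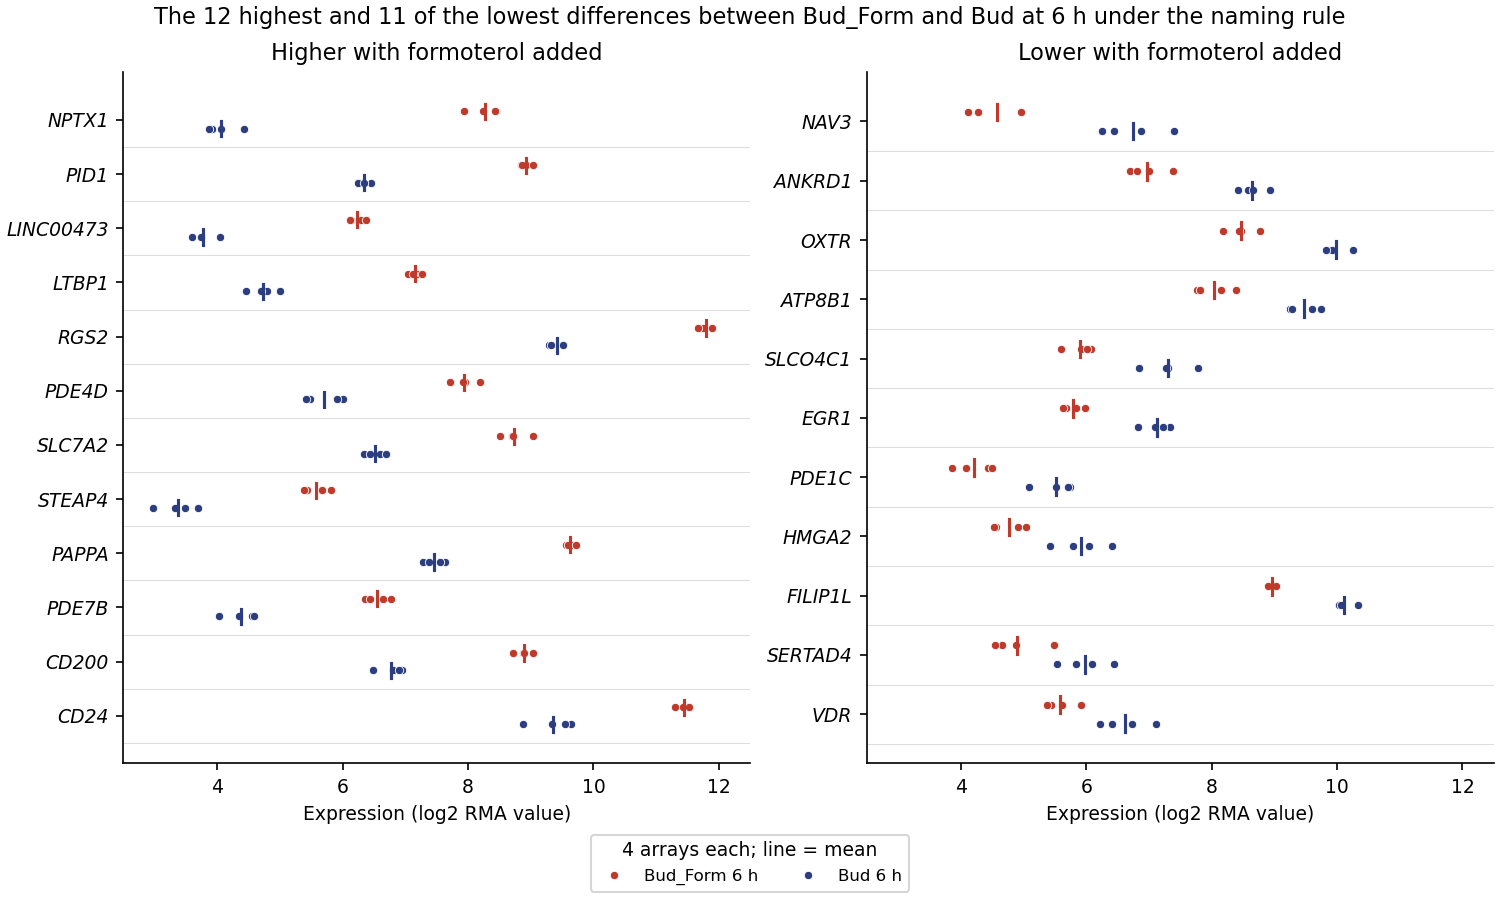
Expression (log2 RMA value, x axis) of the 12 genes with the highest and 11 of those with the lowest differences under the naming rule (y axis), with the 4 Bud_Form arrays above the 4 Bud arrays of each gene and a vertical line at each mean. The rule takes only genes whose groups do not overlap, and NPTX1 shows the widest gap, with means of 8.26 in Bud_Form and 4.06 in Bud arrays.

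Genes of cyclic AMP breakdown and G-protein signalling were among the highest. RGS2, which speeds up the switching off of Gq proteins, was at 11.89, 11.88, 11.75 and 11.66 in Bud_Form arrays, against 9.51, 9.52, 9.29 and 9.33 in Bud arrays. Its 5.22-fold difference (2.38 ± 0.11, adjusted p = 8.14e-26) came on top of a level that was already high with budesonide. PDE4D, a phosphodiesterase specific for cyclic AMP, was at 8.20, 7.71, 7.95 and 7.91 in Bud_Form arrays, against 6.00, 5.47, 5.41 and 5.91 in Bud arrays (4.74-fold, adjusted p = 8.16e-20). Of its 7 probe sets 6 were higher, and the differences ranged from −0.06 to 2.68. PDE7B, a further phosphodiesterase specific for cyclic AMP, was at 6.78, 6.65, 6.35 and 6.43 in Bud_Form arrays, against 4.55, 4.59, 4.03 and 4.35 in Bud arrays (4.51-fold, adjusted p = 9.04e-16). Of its 3 probe sets 2 were higher, with a range from −0.05 to 2.17. LINC00473, a noncoding RNA known to be induced through CREB, was at 6.14, 6.12, 6.29 and 6.37 in Bud_Form arrays, against 3.60, 3.74, 4.04 and 3.74 in Bud arrays (5.47-fold, adjusted p = 7.52e-15).

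Secreted and surface proteins made up most of the others. LTBP1, which binds latent TGF-beta in the extracellular matrix, was at 7.20, 7.26, 7.04 and 7.11 in Bud_Form arrays, against 4.79, 4.69, 4.99 and 4.45 in Bud arrays (5.36-fold, adjusted p = 3.61e-19). All 5 of its probe sets were higher, by 1.17 to 2.42. PAPPA, a secreted protease that cleaves a binding protein of insulin-like growth factors, was at 9.66, 9.56, 9.59 and 9.73 in Bud_Form arrays, against 7.63, 7.28, 7.37 and 7.54 in Bud arrays (4.53-fold, adjusted p = 3.87e-13). CD200, a surface ligand of an inhibitory receptor of myeloid cells, averaged 8.88 ± 0.13 in Bud_Form and 6.78 ± 0.21 in Bud arrays (SD, n = 4 each; limma adjusted p = 1.26e-13). CD24, a lipid-anchored surface glycoprotein, averaged 11.44 ± 0.10 in Bud_Form and 9.35 ± 0.34 in Bud arrays (limma adjusted p = 2.72e-11). These surface genes were 4.31-fold and 4.27-fold higher with formoterol added.

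The last 3 of the 12 serve metabolism and transport. PID1, whose protein binds phosphotyrosine motifs and is known from work on insulin signalling in fat cells, was at 8.92, 9.04, 8.84 and 8.86 in Bud_Form arrays, against 6.30, 6.45, 6.25 and 6.35 in Bud arrays. Replicates of PID1 lay close together in both groups, and the 5.97-fold difference (2.58 ± 0.14, adjusted p = 2.74e-22) was seen in all 3 probe sets, at 1.58 to 3.09. SLC7A2, a transporter of cationic amino acids, averaged 8.74 ± 0.21 in Bud_Form and 6.52 ± 0.16 in Bud arrays (SD, n = 4 each; limma adjusted p = 1.25e-18). STEAP4, a metalloreductase, averaged 5.57 ± 0.21 in Bud_Form and 3.37 ± 0.31 in Bud arrays (limma adjusted p = 1.54e-13), and its other probe sets differed by as little as 0.12.

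Promoter sequences are shown for genes that are higher with formoterol added and hold a CRE or its half-site in the window before their start, because CREB family factors bind these letters. The windows are from RefSeq on GRCh38.p14 and run 250 bases before each annotated start, and capitals mark the CRE, TGACGTCA, in the first 3 sequences and its half-site, TGACG or CGTCA on the other strand, in the other 4. The excerpts are chr6:87095183-87095288 on the minus strand for CGA, chr6:135851506-135851593 for PDE7B, chr2:32946819-32946906 for LTBP1, chr1:192808818-192808902 for RGS2, chr6:165988087-165988246 on the minus strand for LINC00473, chr1:186680437-186680521 on the minus strand for PTGS2 and chr9:99821736-99821884 for NR4A3. Strands not given are plus. For a gene with several annotated starts a window holding a match was shown, and its other windows may lack one.
CGA: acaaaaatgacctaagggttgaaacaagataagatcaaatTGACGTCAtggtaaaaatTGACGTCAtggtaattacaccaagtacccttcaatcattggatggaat
PDE7B: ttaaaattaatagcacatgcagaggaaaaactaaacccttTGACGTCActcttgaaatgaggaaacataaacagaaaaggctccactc
LTBP1: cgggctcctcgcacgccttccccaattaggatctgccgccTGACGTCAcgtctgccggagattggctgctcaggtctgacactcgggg
RGS2: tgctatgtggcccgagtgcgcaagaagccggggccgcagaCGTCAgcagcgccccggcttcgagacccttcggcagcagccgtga
LINC00473: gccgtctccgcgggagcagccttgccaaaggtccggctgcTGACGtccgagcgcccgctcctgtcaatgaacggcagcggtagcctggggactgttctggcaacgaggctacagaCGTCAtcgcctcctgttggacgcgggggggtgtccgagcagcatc
PTGS2: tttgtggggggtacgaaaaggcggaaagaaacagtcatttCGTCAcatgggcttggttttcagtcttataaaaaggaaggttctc
NR4A3: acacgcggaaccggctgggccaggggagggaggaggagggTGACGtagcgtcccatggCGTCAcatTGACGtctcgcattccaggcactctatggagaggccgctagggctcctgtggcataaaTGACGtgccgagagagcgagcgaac

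CGA holds a tandem pair of CREs that begin 142 and 124 bases before the start shown, PDE7B a single one at 155 bases and LTBP1 a single one at 94 bases. Half-sites begin 181 bases before the start of RGS2, 58 before that of PTGS2 and 167 and 92 before that of LINC00473, and NR4A3 has 4 of them. Counted over windows of 250 bases before to 50 after the start, with both strands searched, the full CRE stood in 4 of the 107 windows of the genes called at least 2-fold higher (3.74%). It stood in 2.32% of the 20389 windows of all genes tested and in 1.85% of all 35097 windows. The half-site, which each full CRE also contains, stood in 28% of both the higher genes' windows and the windows of all genes tested, and in 24.5% of all windows. Of the 93 higher genes 70 had a window, and of the 17 lower genes 14 had one, with no full CRE in their 33 windows. These matches are a description of letters, and no test was made of them.

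Among the lowest genes, NAV3, a microtubule-binding protein, was at 4.96, 4.12, 4.27 and 4.96 in Bud_Form arrays, against 6.87, 6.44, 6.26 and 7.39 in Bud arrays. It fell by 2.16 ± 0.20 on the log2 scale (4.48-fold, adjusted p = 1.71e-12), with its other probe set at −0.19. ANKRD1, an ankyrin-repeat protein known as a target of YAP, was at 7.38, 6.69, 7.00 and 6.81 in Bud_Form arrays, against 8.92, 8.43, 8.58 and 8.65 in Bud arrays (3.19-fold lower, adjusted p = 2.27e-09). Budesonide alone had raised ANKRD1 by 1.72 ± 0.20 over untreated cells, so that the level with both drugs, a mean of 6.97, was close to the 6.93 of untreated cells. The oxytocin receptor OXTR was at 8.78, 8.47, 8.43 and 8.18 in Bud_Form arrays, against 10.25, 9.94, 9.92 and 9.83 in Bud arrays (2.87-fold lower, adjusted p = 3.77e-11). ATP8B1, a phospholipid flippase, was at 8.15, 7.77, 7.81 and 8.39 in Bud_Form arrays, against 9.75, 9.24, 9.28 and 9.60 in Bud arrays (2.70-fold lower, adjusted p = 9.45e-15). EGR1, an immediate early transcription factor, was at 5.67, 5.99, 5.84 and 5.63 in Bud_Form arrays, against 7.34, 7.23, 7.09 and 6.82 in Bud arrays (2.53-fold lower, adjusted p = 5.93e-07). Of the 6 EGR1 probe sets 5 were lower, and the differences ran from −1.50 to 0.02.

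A further 6 of the lowest genes differed by 2.05-fold to 2.63-fold. They were SLCO4C1, a transporter of organic anions (fell by 1.40 ± 0.14), PDE1C, a phosphodiesterase activated by calcium and calmodulin (fell by 1.30 ± 0.17), and HMGA2, a chromatin protein (fell by 1.16 ± 0.18). The filamin-binding protein gene FILIP1L (fell by 1.15 ± 0.09), SERTAD4 (fell by 1.09 ± 0.20) and the vitamin D receptor VDR (fell by 1.04 ± 0.13) were the others. VDR averaged 5.58 ± 0.24 in Bud_Form and 6.62 ± 0.39 in Bud arrays (SD, n = 4 each), below the untreated mean of 8.79, since budesonide alone lowered it too (fell by 2.17 ± 0.13). Only 2 of its 4 probe sets were lower with formoterol added, and they ranged from −1.04 to 0.09.

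The cyclic AMP pathway was followed by role, and the lists are described by their counts beside the 6.72% of all genes called. All list counts come from the fit without the replicate block and were not made with it. The block called more genes, so a list member not called here may pass with it. Here and below, lists and members were chosen with earlier results of these data known. An excess over the share of all genes may therefore be partly built in, and it was not tested. Of 9 measured genes for beta-adrenoceptors, receptor kinases and arrestins none was called, with differences from −0.28 to 0.30, and of 11 genes for G protein subunits and adenylyl cyclases none was called, with −0.15 to 0.26. Among 13 protein kinase A subunits, inhibitors and anchors, 2 were higher and 1 lower. AKAP12, which tethers protein kinase A to the receptor, was at 11.05, 10.75, 11.07 and 10.97 in Bud_Form arrays, against 9.98, 9.71, 9.77 and 9.73 in Bud arrays (1.16 ± 0.11, adjusted p = 4.49e-12). The kinase inhibitor PKIB was higher by 0.63 ± 0.17, a call lost without Bud replicate 3 (0.56) or Bud_Form replicate 2 (0.53). The catalytic subunit PRKACB was lower by 0.21 ± 0.06 (−0.21), and that call was lost without any of several single arrays (−0.20 to −0.19).

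Of 19 measured phosphodiesterase genes 7 were higher and 1, PDE1C, was lower, against a background of 3.91% and 2.81% of all genes. Besides PDE4D and PDE7B these were PDE3A, PDE6A, PDE8B, PDE8A and PDE4B. PDE3A, which hydrolyses both cyclic nucleotides, was at 4.68, 4.70, 4.43 and 4.89 in Bud_Form arrays, against 3.38, 3.68, 3.58 and 3.64 in Bud arrays (1.10 ± 0.15, adjusted p = 7.09e-08). PDE8B, specific for cyclic AMP, was at 7.03, 6.74, 6.47 and 6.95 in Bud_Form arrays, against 6.04, 5.44, 5.96 and 6.03 in Bud arrays (0.93 ± 0.16, adjusted p = 1.38e-05). The related PDE8A differed by 0.39 ± 0.07, a call lost with all its probe sets averaged (0.20). PDE6A, known for its part in vision, was higher by 1.16 ± 0.18, but its Bud_Form replicate 3 (4.43) lay within the Bud range of 3.69 to 4.46. PDE4B differed by 0.68 ± 0.22 (adjusted p = 0.0468), and the call was lost without any one of Bud replicates 1 to 3 or of the 4 Bud_Form replicates (0.59 to 0.71), and with all its probe sets averaged (0.30). The median over all 19 was 0.03, against −0.03 over all genes, and the 11 members not called lay between −0.21 and 0.15.

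In the CREB family with its coactivators and SIK kinases, 3 of 12 measured genes were higher and none lower, against 3.91% and 2.81% of all genes. CREB5, a CRE-binding factor, was at 7.03, 6.49, 6.67 and 6.64 in Bud_Form arrays, against 5.22, 4.62, 4.26 and 4.40 in Bud arrays (4.24-fold, 2.08 ± 0.22, adjusted p = 4e-11). Budesonide alone lowered CREB5 (−1.63 ± 0.22 against untreated cells), and the Bud_Form mean of 6.71 lay above the Bud mean of 4.62 and the untreated mean of 6.25. The kinase SIK2, which holds CREB coactivators in the cytoplasm, was higher by 0.86 ± 0.10 (adjusted p = 4.4e-09), in 5 of 6 probe sets. CREM, which also yields repressors of CREs, was higher by 0.39 ± 0.11, and the call was lost without Bud replicate 4 (0.36), without Bud_Form replicate 3 (0.34) or without all replicate 1 arrays (0.42).

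Of 21 measured genes known to be induced through cyclic AMP and CREB, 8 were higher and none lower, with a median of 0.19 over the list. RGS2, LINC00473, PDE4D, PDE4B and CREM of this list have been given above. CGA, the alpha subunit of the glycoprotein hormones, was at 5.46, 5.75, 5.50 and 5.35 in Bud_Form arrays, against 3.22, 3.73, 3.15 and 3.61 in Bud arrays (4.25-fold, adjusted p = 3.19e-14). It is the gene whose promoter window shows the tandem CREs. NR4A3, an orphan nuclear receptor, was at 5.46, 4.97, 5.28 and 5.17 in Bud_Form arrays, against 4.43, 3.83, 4.01 and 3.92 in Bud arrays (2.25-fold, adjusted p = 6.21e-08). The neurotrophin BDNF was higher by 0.44 ± 0.13, a call lost without Bud replicate 3 (0.40) or Bud_Form replicate 2 (0.43). Its relatives in the fast response were not called at 6 h. NR4A1 differed by −0.07 ± 0.31, with adjusted p = 0.952 in limma, and FOS by −0.18 ± 0.13 (limma adjusted p = 0.513). FOS has probe sets that disagree, and their mean was 0.36 higher. NR4A2 differed by 0.83 ± 0.30 (limma adjusted p = 0.0927), and its 4 Bud_Form arrays, 4.69 to 5.02, lay above its Bud arrays, 3.63 to 4.18.

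**Figure D2:**
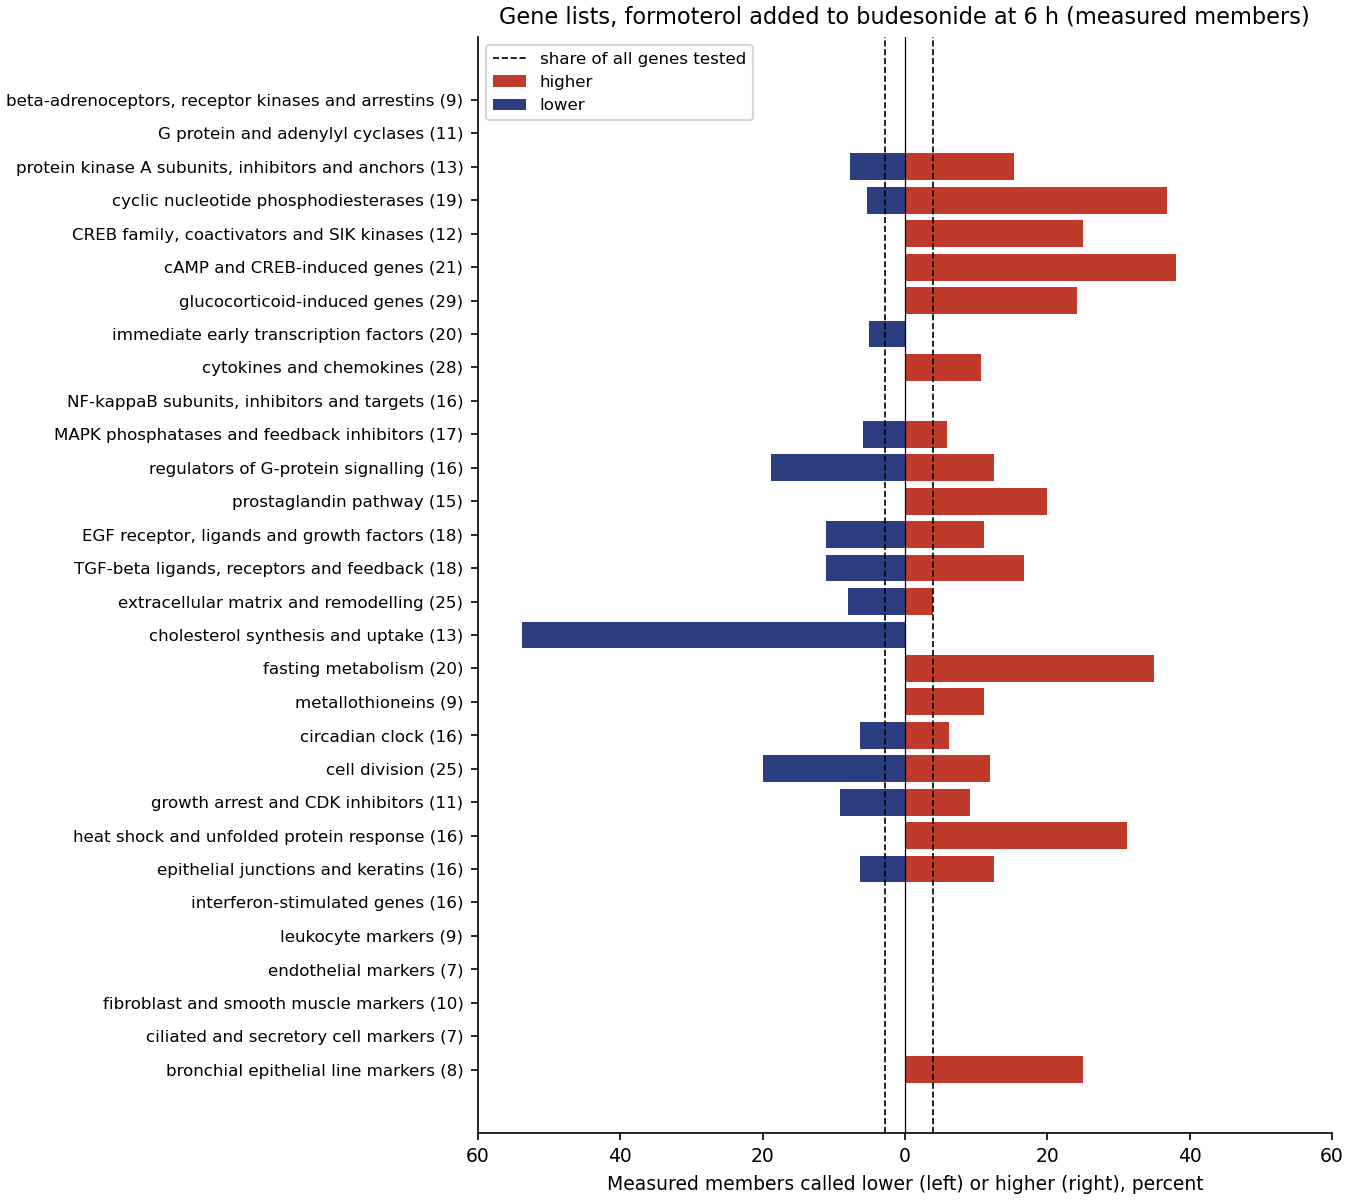
Percent of the measured members (number in brackets) of the 30 gene lists (y axis) that limma called higher (right) or lower (left) in Bud_Form than in Bud arrays at 6 h, with dashed lines at the shares over all genes tested, 3.91% higher and 2.81% lower. Cholesterol genes reach furthest to the left (7 of 13 lower), and cAMP and CREB-induced genes (8 of 21) and phosphodiesterases (7 of 19) furthest to the right. The counts are from the fit without the replicate block, and the lists were chosen with earlier results of these data known.

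Among 29 glucocorticoid-induced genes, 7 were higher still with formoterol added and none was lower, against 3.91% and 2.81% of all genes. The absence of lower calls is near that background. With formoterol alone 7 of the 29 were also called higher and none lower, with a median of 0.13, and 5 had a called interaction. CRISPLD2, a secreted protein known as a glucocorticoid-responsive gene of airway cells, was at 10.61, 10.42, 10.50 and 10.56 in Bud_Form arrays, against 8.65, 8.71, 8.64 and 8.53 in Bud arrays (3.70-fold, adjusted p = 3.09e-07). Of its 5 probe sets 3 were higher, with a range from −0.22 to 1.89. PDK4, a kinase that shuts off pyruvate oxidation, was at 8.25, 8.19, 7.77 and 7.33 in Bud_Form arrays, against 6.79, 6.50, 5.40 and 5.67 in Bud arrays (3.46-fold, adjusted p = 0.00107). The cell cycle inhibitor CDKN1C was at 9.87, 9.72, 9.70 and 9.27 in Bud_Form arrays, against 8.49, 8.22, 8.22 and 7.84 in Bud arrays (2.72-fold, adjusted p = 2.74e-05). The transcription factors ZBTB16 and CEBPD were higher by 0.98 ± 0.18 and 0.78 ± 0.18, and the thiamine transporter SLC19A2 by 0.54 ± 0.13.

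Other marker genes of the steroid response were not called. TSC22D3, which encodes the leucine zipper protein GILZ, averaged 11.96 ± 0.02 in Bud_Form and 11.69 ± 0.11 in Bud arrays (0.28 ± 0.11, limma adjusted p = 0.125, and 0.0397 with the replicate block). The immunophilin FKBP5 averaged 12.10 ± 0.09 in Bud_Form and 12.07 ± 0.05 in Bud arrays, the phosphatase DUSP1 10.65 ± 0.10 and 10.49 ± 0.06, and the clock gene PER1 7.32 ± 0.24 and 7.14 ± 0.08 (SD, n = 4 each; limma adjusted p = 0.939, 0.421 and 0.824). The receptor gene NR3C1 averaged 9.49 ± 0.13 in Bud_Form and 9.55 ± 0.12 in Bud arrays (limma adjusted p = 0.811). The median over the 29 genes was 0.15, and 14 of them had groups that did not overlap, against 11.3% of all genes.

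**Figure D3:**
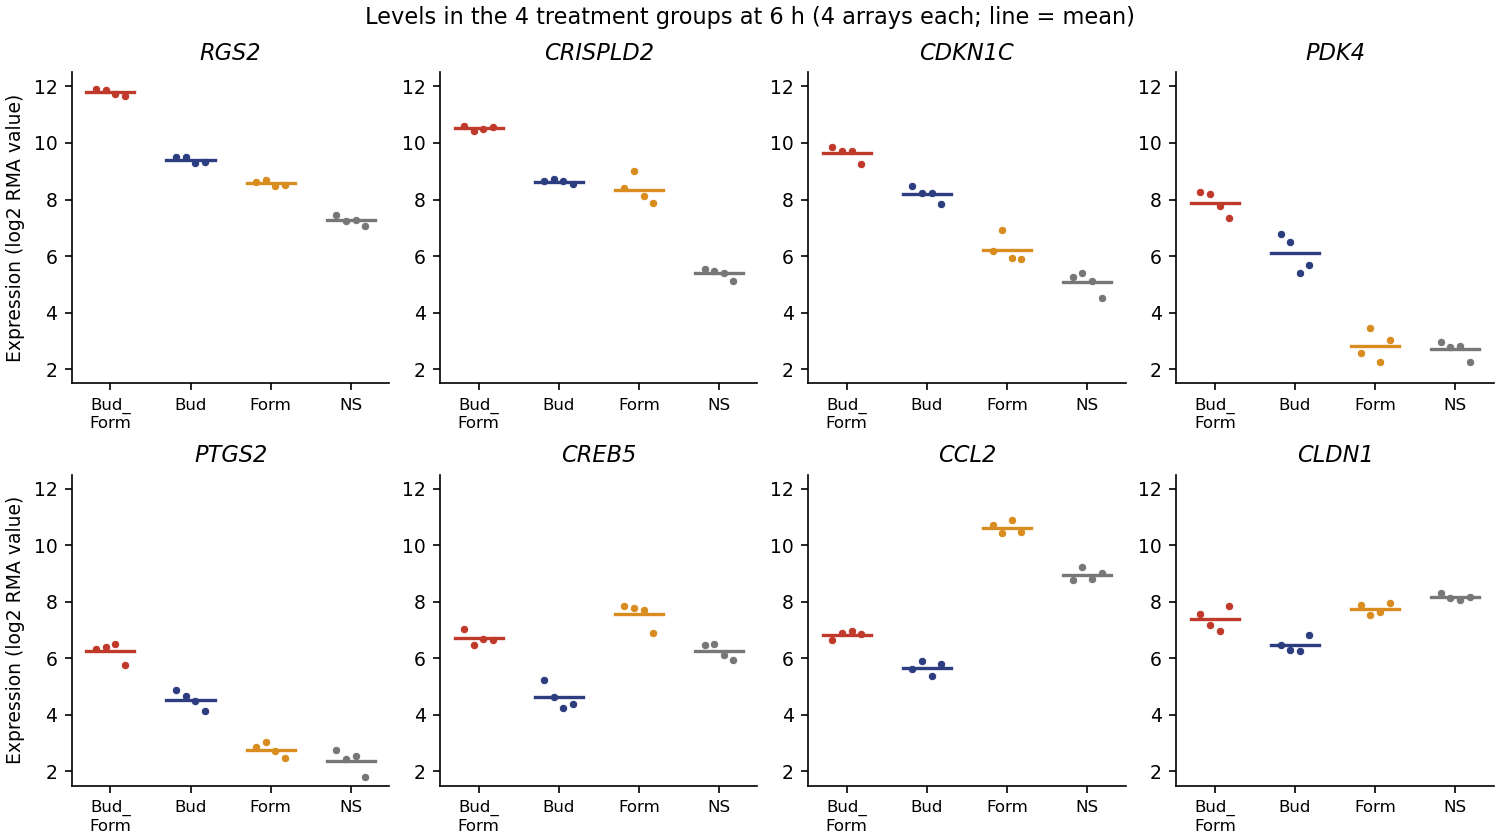
Expression (log2 RMA value, y axis) of 8 genes in the 4 treatment groups at 6 h (x axis), with 4 arrays as points and a line at each mean. RGS2, CRISPLD2, CDKN1C and PDK4 are highest in Bud_Form arrays, and in CREB5, CCL2 and CLDN1 the Bud_Form mean lies above a Bud mean that is itself below that of untreated cells.

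Among 28 measured cytokines and chemokines 3 were higher and none lower, where 3.91% and 2.81% of all genes were, so that the absence of lower calls is near the background. CCL2, which attracts monocytes, was at 6.64, 6.88, 6.95 and 6.88 in Bud_Form arrays, against 5.61, 5.92, 5.37 and 5.78 in Bud arrays (2.24-fold, adjusted p = 9.02e-08). Budesonide alone lowered CCL2, and the level with both drugs was still below that of untreated cells (6.84 ± 0.13 in Bud_Form against 8.96 ± 0.22 in NS arrays). IL15, a cytokine that supports lymphocytes, was at 8.21, 8.19, 8.08 and 8.15 in Bud_Form arrays, against 6.94, 7.00, 6.75 and 7.13 in Bud arrays (2.30-fold, adjusted p = 1.93e-13). The neutrophil chemokine CXCL1 was higher by 0.67 ± 0.16. IL6 and CXCL8 did not pass, at 0.29 ± 0.19 and −0.42 ± 0.18 (limma adjusted p = 0.483 and 0.183). None of 16 NF-kappaB subunits, inhibitors and targets was called (−0.24 to 0.31), also near the background share, and among 20 immediate early transcription factors EGR1 alone was. Of the 28 cytokine genes 12 were below 3.02, where a change cannot be told from dim signal.

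Some genes for prostaglandin synthesis and sensing were among those higher. Of 15 measured genes of this pathway 3 were higher and none lower, against 3.91% and 2.81% of all genes. The absence of lower calls is thus near the background. The other 12 were not called, and the list's median was 0.05. PTGS2, the inducible cyclooxygenase, was at 6.31, 6.39, 6.52 and 5.78 in Bud_Form arrays, against 4.86, 4.65, 4.50 and 4.13 in Bud arrays (3.28-fold, adjusted p = 6e-09). Form and untreated cells had means of 2.77 and 2.39, at dim signal. PLA2G4A, the phospholipase that releases arachidonic acid, was at 8.14, 8.20, 8.08 and 8.13 in Bud_Form arrays, against 7.21, 7.26, 7.47 and 7.34 in Bud arrays (1.77-fold, adjusted p = 0.000807). The receptor PTGER2, which itself raises cyclic AMP, was higher by 0.70 ± 0.20. That call was lost without Bud replicate 4 (0.60), without Bud_Form replicate 2 (0.63) or 3 (0.65), without all replicate 1 arrays (0.75) and with probe sets averaged (0.42).

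Lipid and sugar metabolism moved in 2 directions. Of 20 measured genes on the list of fasting metabolism 7, PDK4 included, were higher and none lower, against 3.91% and 2.81% of all genes. LPL, the lipase that takes up fat from lipoproteins, was at 6.34, 6.20, 5.84 and 6.57 in Bud_Form arrays, against 4.67, 4.31, 3.96 and 4.82 in Bud arrays (3.48-fold, adjusted p = 6.71e-12). FOXO1, a transcription factor of the fasted state, was higher by 0.61 ± 0.12 and the stress protein SESN1 by 0.51 ± 0.11. Insulin receptor substrate IRS2 was higher by 0.42 ± 0.11, a call lost with probe sets averaged (0.51). The binding protein IGFBP1 was higher by 1.01 ± 0.27, and the call was lost without Bud replicate 3 (0.89) or 4 (0.90) or all replicate 1 arrays (0.99). HK2, a member of the list whose enzyme traps glucose for glycolysis, was higher by 0.63 ± 0.16.

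Of 13 measured genes for cholesterol synthesis and uptake 7 were lower, against 2.81% of all genes, none was higher and 6 did not pass. The mevalonate kinase MVK was at 6.86, 6.49, 6.55 and 6.34 in Bud_Form arrays, against 7.42, 7.20, 7.24 and 7.09 in Bud arrays, and fell by 0.68 ± 0.08 (adjusted p = 6.69e-09). SQLE, squalene epoxidase, was at 10.40, 10.39, 10.36 and 10.42 in Bud_Form arrays, against 10.97, 10.82, 10.85 and 11.04 in Bud arrays, and fell by 0.53 ± 0.08 (adjusted p = 4.54e-06). HMGCS1, which makes the precursor of mevalonate, fell by 0.52 ± 0.11, the sterol desaturase SC5D fell by 0.56 ± 0.09 and the isomerase IDI1 fell by 0.37 ± 0.08. LSS, lanosterol synthase, fell by 0.79 ± 0.21, a call lost without all replicate 1 arrays (−0.82). INSIG1, which retains the sterol sensor in the endoplasmic reticulum, fell by 0.28 ± 0.08, a call lost without Bud replicate 1 (−0.24) or 4 (−0.25) or all replicate 1 arrays (−0.24). The list's median was −0.40, and the highest member stood at 0.02.

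Matrix, TGF-beta and growth factor genes had calls in both directions, to be read beside 3.91% of all genes higher and 2.81% lower. Besides LTBP1, the receptor TGFBR1 was higher by 0.52 ± 0.06, a call lost with probe sets averaged (0.25), while the signal transducer SMAD3 fell by 0.89 ± 0.09 and the ligand BMP4 fell by 0.51 ± 0.10. In all, 3 of 18 TGF-beta genes were higher and 2 lower, with the call of SMAD2 lost under most alternatives (0.21 without Bud_Form replicate 3). PLAT, the tissue plasminogen activator, was at 11.79, 11.66, 11.78 and 11.62 in Bud_Form arrays, against 10.39, 10.38, 10.27 and 10.20 in Bud arrays (2.64-fold, adjusted p = 1.16e-14). It was the single higher gene among 25 matrix and remodelling genes, 2 of which, PLAU and CCN1, were lower. These counts are near the shares of all genes and are no result about the list. The PLAU call was lost with probe sets averaged (−0.31) and with the compared arrays alone in the fit (−0.475). Of 18 genes for the EGF receptor, its ligands and growth factors, 2 were higher and 2 lower, with EGFR itself at 0.37 ± 0.09, a call lost with the compared arrays alone in the fit (0.37). The lower calls of this list were lost too, that of NRG1 without Bud_Form replicate 4 (−0.42) and that of FGF2 with probe sets averaged (−0.26).

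Smaller or isolated changes were seen in other groups, to be read beside 3.91% of all genes higher and 2.81% lower. Of 16 junction and keratin genes 2 were higher, the tight junction gene CLDN1 by 0.94 ± 0.16 and the keratin KRT7 by 0.91 ± 0.17, and 1 was lower, the tight junction gene OCLN, which fell by 0.46 ± 0.09. Of 25 cell division genes 3 were higher and 5 lower, with CCNE1, a G1 cyclin, at 0.55 ± 0.12 and CCNA2, a cyclin of S phase, at 0.35 ± 0.08. The mitotic genes CCNB2 and KIF20A fell by 0.39 ± 0.06 and fell by 0.41 ± 0.07. The other 4 calls were lost under alternatives, those of PCNA (0.02 with probe sets averaged) and BUB1 (−0.17 without Bud_Form replicate 4) under most of them, that of CCNB1 (−0.20 without Bud_Form replicate 4) under several and that of CDC20 with probe sets averaged (−0.25). Among 11 growth arrest genes CDKN1C was higher and GADD45A, a stress-induced growth arrest gene, fell by 0.70 ± 0.09. Of 9 metallothioneins 1 was higher, MT1M by 1.32 ± 0.21, at 4.46 to 6.06 in Bud_Form and 3.23 to 4.41 in Bud arrays. Of 16 heat shock and unfolded protein response genes 5 were higher, led in certainty by the chaperone DNAJB9 at 0.43 ± 0.08, and the other 4, HSPA5, HSP90B1, HSPH1 and XBP1, each lost the call under at least 1 alternative.

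The remaining lists had few calls or none, where 3.91% of all genes were higher and 2.81% lower. Regulators of G-protein signalling had 2 of 16 higher (RGS2, and RGS20 at 0.39 ± 0.09) and 3 lower, RGS3, RGS4 and RGS7, of which RGS7 fell by 0.83 ± 0.12. The calls of RGS3 and RGS4 were lost under most alternatives, among them probe sets averaged (−0.11 and −0.60). MAPK phosphatases and feedback inhibitors had 1 of 17 higher (DUSP4) and 1 lower (DUSP14), and circadian clock genes 1 of 16 higher (CLOCK) and 1 lower (BHLHE41). Each of these 4 calls was lost under several alternatives, with values down to 0.21 for DUSP4, −0.21 for DUSP14, 0.28 for CLOCK and −0.46 for BHLHE41. None of 16 interferon-stimulated genes was called without the replicate block, which called ISG15 (0.84), but their median was 0.28, and the sum of their log2 levels was 118.88 in Bud_Form replicate 4 against 94.96 to 98.70 in the other Bud_Form replicates and 90.95 to 98.26 in Bud arrays. In the same array the antiviral gene MX1 was at 8.34 and ISG15 at 10.94, against at most 6.43 and 9.21 in the other Bud_Form arrays. Without this array 980 genes were called in all, against 1218 with it, and leaving out any other single array gave 971 to 1116.

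Markers of other cell types were checked in 4 lists. None of 9 leukocyte, 7 endothelial, 10 fibroblast and smooth muscle or 7 ciliated and secretory cell markers was called, which is near the 6.72% of all genes for lists of this size. The summed log2 levels of the leukocyte markers were 27.54 to 29.31 in Bud_Form and 27.93 to 29.95 in Bud arrays, and 6 of the 9 lay below 3.02. Sums for the endothelial markers were 25.25 to 27.12 in Bud_Form and 26.48 to 27.51 in Bud arrays, those for the fibroblast and smooth muscle markers 47.61 to 50.28 and 47.43 to 49.27, and those for ciliated and secretory markers 25.06 to 26.34 and 26.32 to 27.08. Of these 3 lists 2, 3 and 2 markers lay below 3.02. Of the 8 bronchial epithelial line markers 2 were higher, KRT7 and EGFR, and none lower, with sums of 49.28 to 50.71 in Bud_Form and 48.61 to 50.13 in Bud arrays.

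Whether formoterol did the same without the steroid was asked by setting the change in Bud_Form over Bud beside that in Form over NS cells, which share no arrays. Formoterol alone changed 873 genes (4.81%), 500 higher and 373 lower, and 1360 with the replicate block. Of these, 496 were also called with budesonide present, which is 56.8% of the calls of formoterol alone and 40.7% of those with budesonide, and 490 of the 496 ran in the same direction. Of the 873 genes, 815 (93.4%) had the same sign in both. The differences correlated at 0.594 across all genes, which are not independent replicates, and at 0.813 across the genes called alone.

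The interaction, which tests whether the 2 changes differ, was called for 131 genes (0.722%), 81 above and 50 below. The replicate block gave 272, and leaving out all replicate 1 arrays gave 84. The rule named 12 of them, all called in Bud_Form over Bud as well. Among the 6 above, NPTX1 rose by 4.20 with budesonide and 1.85 ± 0.23 without it (interaction 2.34 ± 0.33, limma adjusted p = 2.75e-06), with means of 5.55 ± 0.74 in Form and 3.69 ± 0.23 in NS cells (SD, n = 4 each). LTBP1 averaged 4.23 ± 0.33 in Form and 3.94 ± 0.32 in NS cells, so the increase given above was seen with the steroid, and the interaction was 2.13 ± 0.22 (limma adjusted p = 6.89e-10). PID1 differed by 0.79 ± 0.14 without budesonide (interaction 1.79 ± 0.20, limma adjusted p = 4.07e-09) and PAPPA by 0.44 ± 0.20 (interaction 1.74 ± 0.28, limma adjusted p = 5.19e-05). IL1RL1, the receptor for interleukin-33, was at 4.78, 4.97, 5.08 and 5.56 in Bud_Form arrays, against 3.51, 3.50, 3.31 and 3.16 in Bud arrays, and at 3.07 ± 0.20 in Form and 2.97 ± 0.27 in NS cells, at dim signal, where a change with formoterol alone could not be measured (interaction 1.63 ± 0.25, limma adjusted p = 1.63e-05). HRK, a protein that promotes apoptosis, averaged 7.87 ± 0.10 in Bud_Form and 6.54 ± 0.31 in Bud cells, and 5.46 ± 0.18 in Form and 5.62 ± 0.17 in NS cells (interaction 1.49 ± 0.22, limma adjusted p = 1.44e-05).

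The 6 below rose with formoterol in both settings, but less on top of budesonide. PDE7B averaged 6.55 ± 0.20 in Bud_Form and 4.38 ± 0.26 in Bud cells, and 7.54 ± 0.09 in Form and 3.54 ± 0.19 in NS cells (interaction −1.83 ± 0.23, limma adjusted p = 3.76e-07). LINC00473 averaged 6.23 ± 0.12 in Bud_Form and 3.78 ± 0.19 in Bud cells, and 8.15 ± 0.12 in Form and 4.25 ± 0.34 in NS cells (interaction −1.45 ± 0.28, limma adjusted p = 0.0011). SMOC1, a secreted calcium-binding protein, averaged 5.85 ± 0.25 in Bud_Form and 4.35 ± 0.03 in Bud cells, and 7.32 ± 0.12 in Form and 4.05 ± 0.20 in NS cells (interaction −1.76 ± 0.23, limma adjusted p = 6.84e-07). In all 3 genes the Bud_Form mean stood below the Form mean. DMBT1, a scavenger receptor protein of mucosal surfaces, had an interaction of −1.46 ± 0.23, which was lost with probe sets averaged (−0.54), as was its change with budesonide present (0.26). NHS and the lipid phosphatase PLPP3 had interactions of −1.32 ± 0.28 and −1.06 ± 0.20. Their increases with budesonide present, 0.67 and 0.48, were lost with probe sets averaged (0.29 and 0.21) and without single arrays, among them Bud replicate 3 (0.64 and 0.37) and Bud_Form replicate 1 (0.63 and 0.44).

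**Figure D4:**
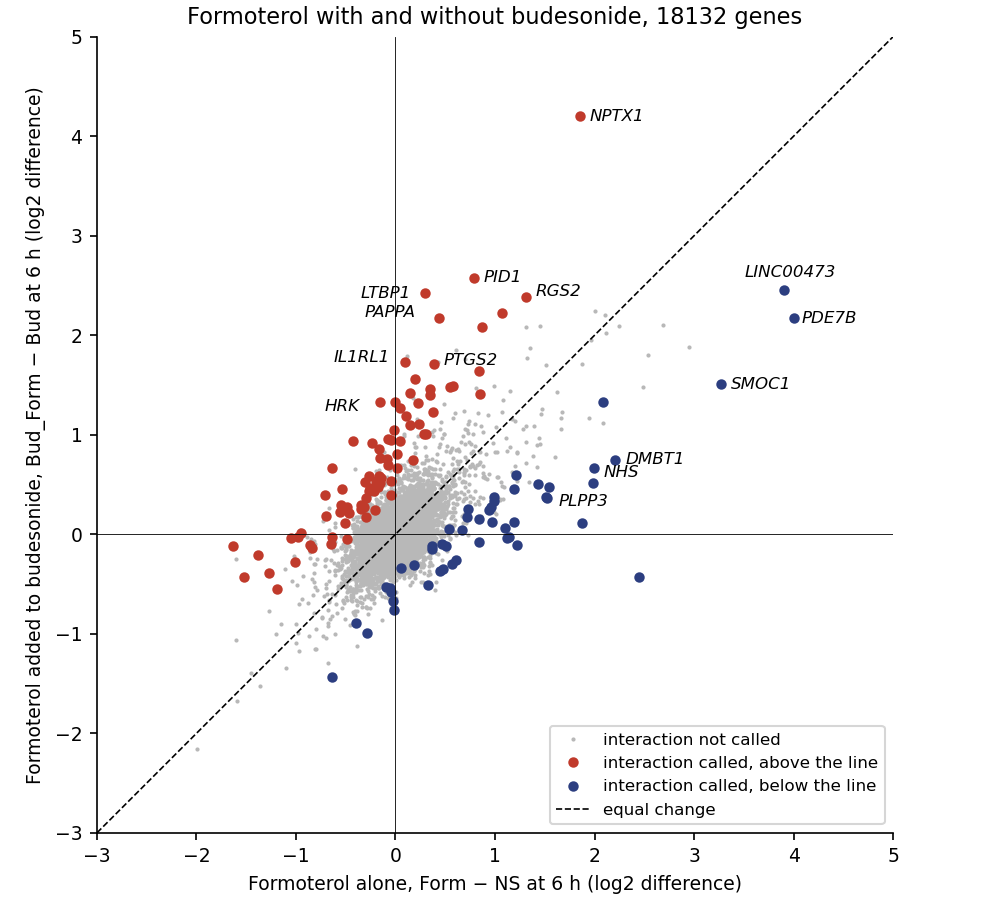
Log2 difference with formoterol on top of budesonide (Bud_Form minus Bud, y axis) against that with formoterol alone (Form minus NS, x axis) at 6 h for the 18132 genes, each point a gene, with a dashed line of equal change. The 131 genes with a called interaction are coloured, 81 above the line, such as NPTX1, LTBP1 and PID1, and 50 below it, such as PDE7B, SMOC1 and LINC00473.

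Several genes described above also had a called interaction. It was positive for RGS2 (1.08 ± 0.15), SLC7A2 (1.16 ± 0.21), CGA (1.21 ± 0.25), PLAT (1.05 ± 0.16), PTGS2 (1.33 ± 0.29, with Form and NS levels at dim signal), MT1M (1.33 ± 0.30), CXCL1 (1.31 ± 0.23) and CLDN1 (1.36 ± 0.22). CXCL1 and CLDN1 differed in opposite directions in the 2 settings. CXCL1 averaged 4.99 ± 0.15 in Bud_Form and 4.32 ± 0.19 in Bud cells, and 4.12 ± 0.29 in Form and 4.76 ± 0.31 in NS cells. CLDN1 averaged 7.39 ± 0.41 in Bud_Form and 6.46 ± 0.26 in Bud cells, and 7.75 ± 0.20 in Form and 8.18 ± 0.10 in NS cells, where its difference of −0.43 did not pass. The interaction was negative for DUSP1 (−0.69 ± 0.13), which Form cells had at 9.30 and NS cells at 8.46, and for ATP8B1 (−0.80 ± 0.17) and SMAD3 (−0.49 ± 0.12). It was not called for CRISPLD2 (−1.07 ± 0.38, limma adjusted p = 0.323) or PDK4 (1.68 ± 0.55, limma adjusted p = 0.231). Cholesterol genes had no called interaction, and 8 of the 13 were lower with formoterol alone, with a median of −0.39.

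The change at 6 h was set against the same change at 1, 2 and 18 h to ask which of it belongs to this time. The difference was called for 466 genes against 1 h (2.57%), 453 against 2 h (2.5%) and 481 against 18 h (2.65%). Under the replicate block these counts were 790, 822 and 884, and without all replicate 1 arrays 268, 260 and 250. At 1, 2 and 18 h the change itself was called for 267, 794 and 118 genes. Genes that appeared late were PID1, LTBP1 and CREB5, whose differences at 1 h were 0.02 ± 0.14, 0.03 ± 0.15 and 0.04 ± 0.22, and at 2 h 0.49 ± 0.14, 0.19 ± 0.15 and −0.02 ± 0.22. At 18 h they were 0.85 ± 0.14, 1.18 ± 0.15 and 0.35 ± 0.22, all below the 6 h values by a called difference (limma adjusted p = 3.64e-09, 8.91e-05 and 9.52e-05). NPTX1 was higher by 1.08 ± 0.23 at 1 h and 3.91 ± 0.23 at 2 h, and at 18 h it differed by 0.36 ± 0.23, which did not pass.

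NAV3 was lower at 6 h and at no other time, with differences of 0.19 ± 0.20, 0.07 ± 0.20 and −0.20 ± 0.20 at 1, 2 and 18 h, and each contrast with 6 h was called (limma adjusted p = 2.47e-08, 1.22e-07 and 2.84e-06). The fast genes were past their highest value. NR4A3 stood at 3.90 ± 0.16 at 1 h, 4.99 ± 0.16 at 2 h and −0.12 ± 0.16 at 18 h, and C11orf96 at 3.99 ± 0.25, 4.95 ± 0.25 and 1.00 ± 0.25. At 6 h C11orf96 was at 5.94, 6.11, 4.96 and 5.05 in Bud_Form arrays, against 3.93, 3.82, 3.67 and 3.70 in Bud arrays (1.73 ± 0.25). Against 18 h the rule named CD24 and SLC16A14, a member of the monocarboxylate transporter family, at −0.17 ± 0.21 and −0.50 ± 0.19 by then, after 2.09 for each at 6 h. It named B3GALT2, a galactosyltransferase, and FAM218A as well, which were lower by 6 h (−1.18 and −1.12) and differed by 0.70 ± 0.19 and 0.70 ± 0.17 at 18 h. FAM218A at 6 h was at 2.86 to 3.14 in Bud_Form arrays, at dim signal.

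**Figure D5:**
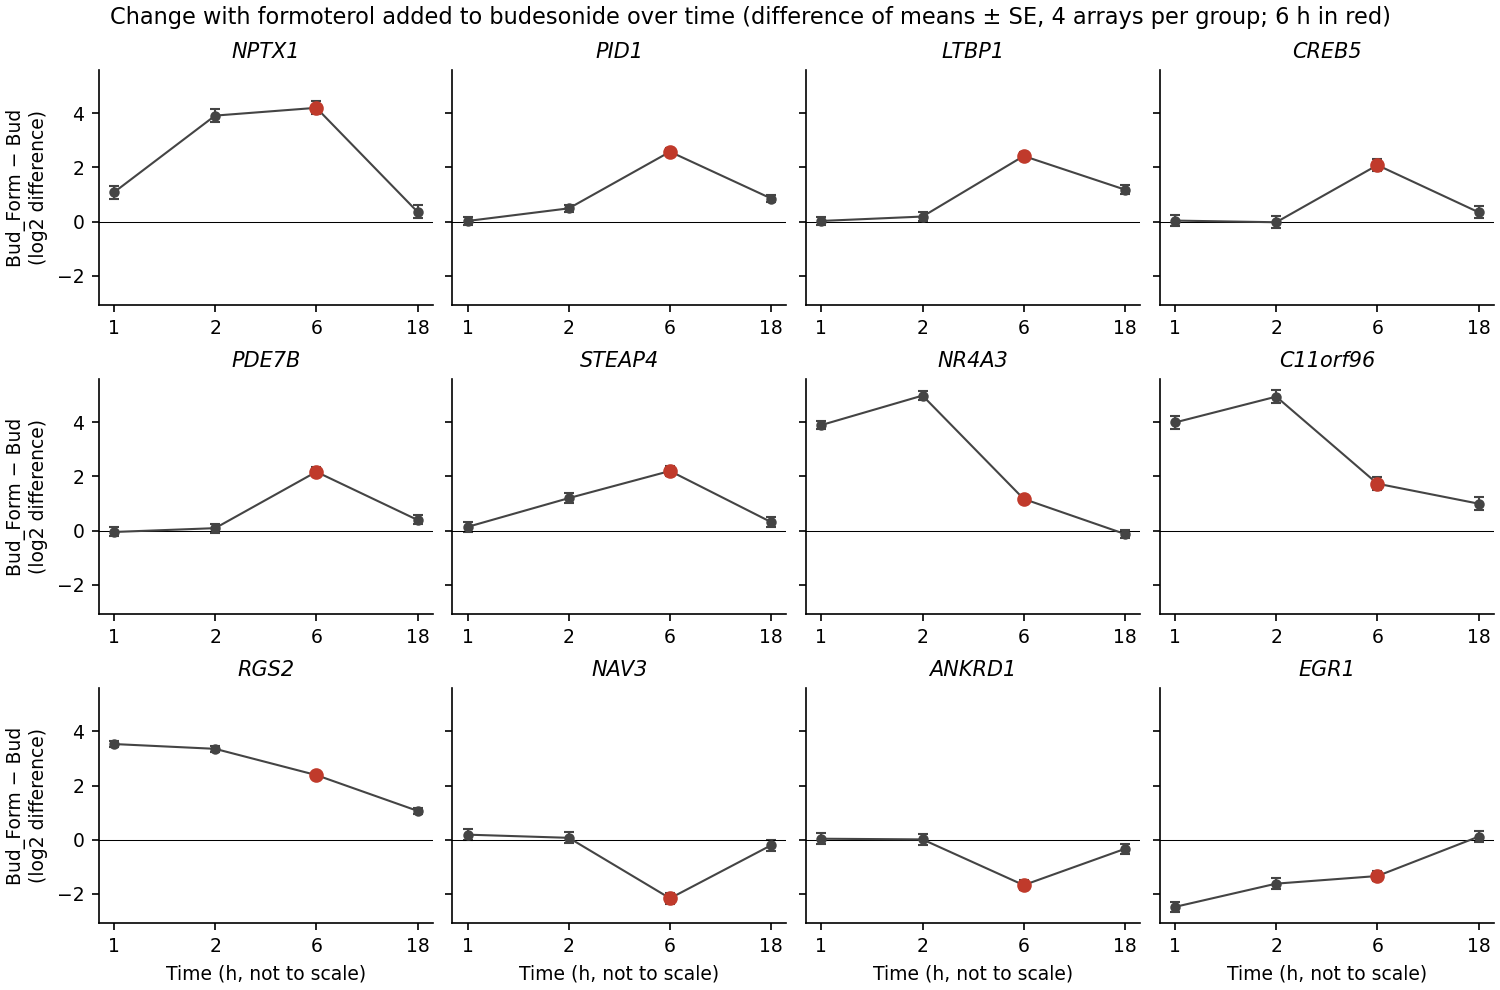
Log2 difference between Bud_Form and Bud arrays (y axis, ± SE from limma, 4 arrays per group) at 1, 2, 6 and 18 h (x axis, not to scale) for 12 genes, with 6 h in red. PID1, LTBP1, CREB5, PDE7B, NAV3 and ANKRD1 depart from 0 mainly at 6 h, while NR4A3, C11orf96, RGS2 and EGR1 are furthest from 0 at 1 or 2 h.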

How the data were processed

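Log2 expression values per probe set were deposited by the authors and made with RMA, per the submitters' processing notes. The RMA version and whether all arrays were normalized together are not given in the sources used here. Joint normalization would hide a change shared by most genes. Of 49395 probe sets, 44994 carried 1 symbol in GEO's annotation of the platform, and those with several (1832) or none (2569) were left out. The probe set with the highest mean stood for each of 18132 genes, 11735 of which had more than 1. One limma fit (version 3.58.1, R 4.3.3, lmFit and eBayes with an intensity trend) held the means of 16 groups over 64 arrays, with 48 residual degrees of freedom. Contrasts were Bud_Form minus Bud at 6 h, Form minus NS at 6 h, their interaction, and the first contrast at 6 h minus that at 1, 2 or 18 h. P-values are two-sided and set a difference of means against the spread within groups, estimated per gene over all 64 arrays. Genes were called at a Benjamini-Hochberg adjusted p under 0.05 over all genes. The fit was tested on simulated data. Python 3.11.15 and matplotlib 3.10.9 made the figures.

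Named genes are the 12 highest and 12 lowest called changes of at least 2-fold without overlap of the 4 and 4 arrays and with either group averaging 4.90, the median probe set, or more, 6 and 6 for the interaction and 3 and 3 for each time difference among genes also called in Bud_Form minus Bud, members of 30 gene lists, and NR3C1. One of the 12 lowest is not reported here. The members and lists were chosen with earlier results of these data known. Deviations from group means of same-numbered Bud_Form and Bud arrays at 6 h correlated at 0.305, 0.293, 0.232 and 0.323, so the labels' replicate numbers pair these arrays by the data. The main fit and the list counts do not use this pairing, and the replicate block does. For Form and NS replicate 2 the value was 0.079. Alternatives were the replicate block, a block within each time, other centring, normalization, filter, variance model, probe set choice and arrays in the fit, and arrays left out. The block with the compared arrays alone was chosen after seeing the data. Promoter windows are RefSeq's on GRCh38.p14.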

Additional observations from a re-analysis of the deposited data

Results flagged for a closer look

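A lone array lay far from its 3 companions in 7 of 210 groups of 4 examined, measured as the gap to the nearest array over the whole range, and chance gives about 1 in 20. These were FILIP1L in Bud replicate 1 (0.92, at 10.34 against 10.04 to 10.06), OCLN in Bud replicate 1 (0.931, at 6.42 against 6.23 to 6.25) and SLC19A2 in Bud replicate 1 (0.844, at 9.10 against 8.83 to 8.87). They were also PDE8B in Bud replicate 2 (0.851, at 5.44 against 5.96 to 6.04), CCNB2 in Bud replicate 4 (0.854, at 9.81 against 9.96 to 9.98), PDE6A in Bud_Form replicate 3 (0.852, at 4.43 against 5.45 to 5.63) and ISG15 in Bud_Form replicate 4 (0.939, at 10.94 against 9.10 to 9.21).

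The change with formoterol on top of budesonide differed from that with formoterol alone, by limma's interaction test, in 25 of 105 genes examined, against 0.722% of all genes. Of the 105, 12 were named because their interaction was called, and others for large changes in Bud_Form minus Bud, whose arrays the interaction also uses. The choice of genes thus fixes part of the count, and its excess over that share cannot be read as a result. The interaction (log2) was 2.34 for NPTX1, 2.13 for LTBP1, 1.79 for PID1, 1.74 for PAPPA, 1.63 for IL1RL1, 1.49 for HRK, 1.36 for CLDN1, 1.33 for PTGS2, 1.33 for MT1M, 1.31 for CXCL1, 1.21 for CGA, 1.16 for SLC7A2, 1.08 for RGS2, 1.05 for PLAT, 0.59 for TSC22D3 and 0.66 for EGFR. It was −1.83 for PDE7B, −1.76 for SMOC1, −1.46 for DMBT1, −1.45 for LINC00473, −1.32 for NHS, −1.06 for PLPP3, −0.80 for ATP8B1, −0.69 for DUSP1 and −0.49 for SMAD3.

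Between times, limma's test of the difference passed as follows. The change at 6 h minus that at 1 h was 3.12 for NPTX1, 2.56 for PID1, 2.40 for LTBP1, −2.73 for NR4A3, −2.35 for NAV3 and −2.26 for C11orf96. Set against 2 h it was 2.23 for LTBP1, 2.11 for CREB5, 2.09 for PID1, −3.81 for NR4A3, −3.21 for C11orf96 and −2.23 for NAV3. For 18 h the values were 3.84 for NPTX1, 2.59 for SLC16A14, 2.26 for CD24, −1.96 for NAV3, −1.87 for B3GALT2 and −1.82 for FAM218A.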

How the results depend on the processing

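The replicate block gave higher counts of called genes, 1886 for Bud_Form minus Bud, 1360 for Form minus NS, 272 for the interaction, and 790, 822 and 884 for 6 h against 1, 2 and 18 h. With a block within each time these were 2587, 1910, 428, 1241, 1292 and 1404. The compared arrays alone with the block, chosen after seeing the data, gave 2599. Without all replicate 1 arrays the interaction count was 84 and the time counts 268, 260 and 250, with fewer samples in the fit. The cause of the other shifts was not tested. Leaving out each array in turn gave 971 to 1116 for Bud_Form minus Bud, 716 to 919 for Form minus NS, 107 to 142 for the interaction, and 398 to 450, 392 to 443 and 394 to 470 for the time differences. Under the other alternatives counts stayed within 1.5 times, and those for Bud_Form minus Bud were 881 to 1269. The share higher was 65.2% with arrays centred on their medians and 52.2% with quantile normalization repeated, against 58.2%. Of the genes with a named change in Bud_Form minus Bud, the 24 of the naming rule kept their calls under every alternative that fitted them. The alternative without dim genes left out those averaging below the median probe set over the compared arrays, STEAP4 among them. FOS turned to 0.36 with probe sets averaged, against −0.18. The replicate block added calls for TSC22D3, KRT18 and ISG15 (0.28, −0.26 and 0.84) and changed no other call of the 125 genes followed. These were genes named in the text and list members already called without the block. List members that only the block would call were thus mostly not followed, and the list counts were not checked this way. Same-numbered Form and NS arrays did not all deviate together (0.079 to 0.345). With the block within each time NR4A2 and CXCL8 passed as well. Arrays give no read depth, and dim probe sets limit what can be seen: 12 of 28 cytokine genes lay below 3.02.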
